A study of Rattus norvegicus with 35 samples.

Results

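The genes of transforming growth factor beta (TGF-beta) and bone morphogenetic protein (BMP) signalling were taken by symbol from the array's annotation, as every gene whose symbol begins with Tgfb, Bmp, Smad and a digit, Inhb, Inha, Acvr or Ltbp. The rule found 43 of the 13439 genes measured, each read from its brightest probe set with 1 gene symbol. The symbol rule also takes in 6 genes named after the pathway that are not its ligands, receptors or Smads. The signals come from 35 rat liver arrays in 6 groups, and the series asks whether simvastatin lessens liver injury when rats with biliary cirrhosis lose blood and are resuscitated.

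Ligands of the TGF-beta family are secreted dimers that bring type II and type I receptor kinases together, and the type I receptor phosphorylates receptor Smads, which enter the nucleus with Smad4. TGF-beta and activins act mainly through Smad2 and Smad3, BMPs through Smad1, Smad5 and Smad9, and Smad6 and Smad7 are inhibitors that the pathway itself induces. In the liver, TGF-beta is stored in latent complexes in the matrix and drives collagen production by stellate cells and portal fibroblasts, while BMP signalling in hepatocytes sets the output of the iron hormone hepcidin.

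All ligated rats had the common bile duct ligated and cut 4 weeks earlier, received vitamin K weekly and are labelled as having secondary biliary cirrhosis. Simvastatin, an inhibitor of cholesterol synthesis, was dosed by gavage each day (5 mg per kg), starting 3 days ahead and ending 1 h before the experiment. The groups were simvastatin-treated ligated rats after hemorrhage and resuscitation (simvastatin H/R, n = 8) or its sham procedure (simvastatin sham, n = 5), ligated rats without simvastatin after H/R (ligated H/R, n = 6) or sham (ligated sham, n = 5), and control rats after H/R (control H/R, n = 6) or sham (control sham, n = 5). The labels give no strain, age or sex, and state neither the operation of the control rats nor whether rats without simvastatin received a vehicle. Nothing in them says that replicates are separate animals handled apart, so the spread behind each p-value may be technical.

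All 9 measured hepatocyte markers, among them Alb, were above background in each of the 6 groups. Background was set per group by the brightest nonspecific probe, and a gene whose group mean exceeded it counted as measured there. It was 3.26 to 4.59 log2 units over the groups. On single arrays it was 4.05 to 5.16 on the 11 control arrays and 2.71 to 4.43 on the ligated ones, and array medians were 3.97 to 4.02 on control arrays and 4.06 to 4.29 on the others. The hybridisation controls bioD and bioB differed by 3.43 to 3.93 log2 units on the 24 ligated arrays and by 3.11 to 3.29 on the 11 control arrays, with no overlap, and the endings of the sample titles also separate the untreated ligated from the control arrays. Any processing batch behind these marks and the effect of ligation cannot be told apart. Ligated sham replicate 3, simvastatin sham replicate 1 and simvastatin H/R replicate 3 correlated least with their own groups (median r of 0.973, 0.966 and 0.971), and simvastatin sham replicate 1 also had a 3'-to-5' difference of 2.2 log2 units for Gapdh, against at most 0.34 on the other 34 arrays. Counts without these 3 arrays are given where they differ.

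In ligated sham livers the ligands Tgfb2 and Tgfb3 and all 4 latent TGF-beta binding proteins rose, by between 3.51-fold and at least 12.5-fold. The activin subunits Inhbe and Inhbc, which are made mainly by hepatocytes, fell 7.79-fold and 5.64-fold. Receptors and Smads that passed moved by less than 2-fold, except Acvrl1, whose fold is only bounded from below. In limma 29 of the 43 (67.4%) had an adjusted p under 0.05, 18 higher and 11 lower in ligated sham than in control sham livers, against 47.6% of all genes (25.3% higher and 22.4% lower). The median log2 difference was 0.10 over the 43 genes and -0.04 over all genes, with a range of -2.96 to 4.82 in the pathway. Of the 28 that passed and have a fold, 9 rose and 5 fell at least 2-fold. Centring each array on its median moved the median of all genes to -0.23 and gave 15 rises and 15 falls among the 43, so the balance of small changes depends on scaling, and no passed gene turned its sign. Arrays measure pieces of liver, in which more cells of a type and more RNA per cell cannot be told apart.

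**Figure D1:**
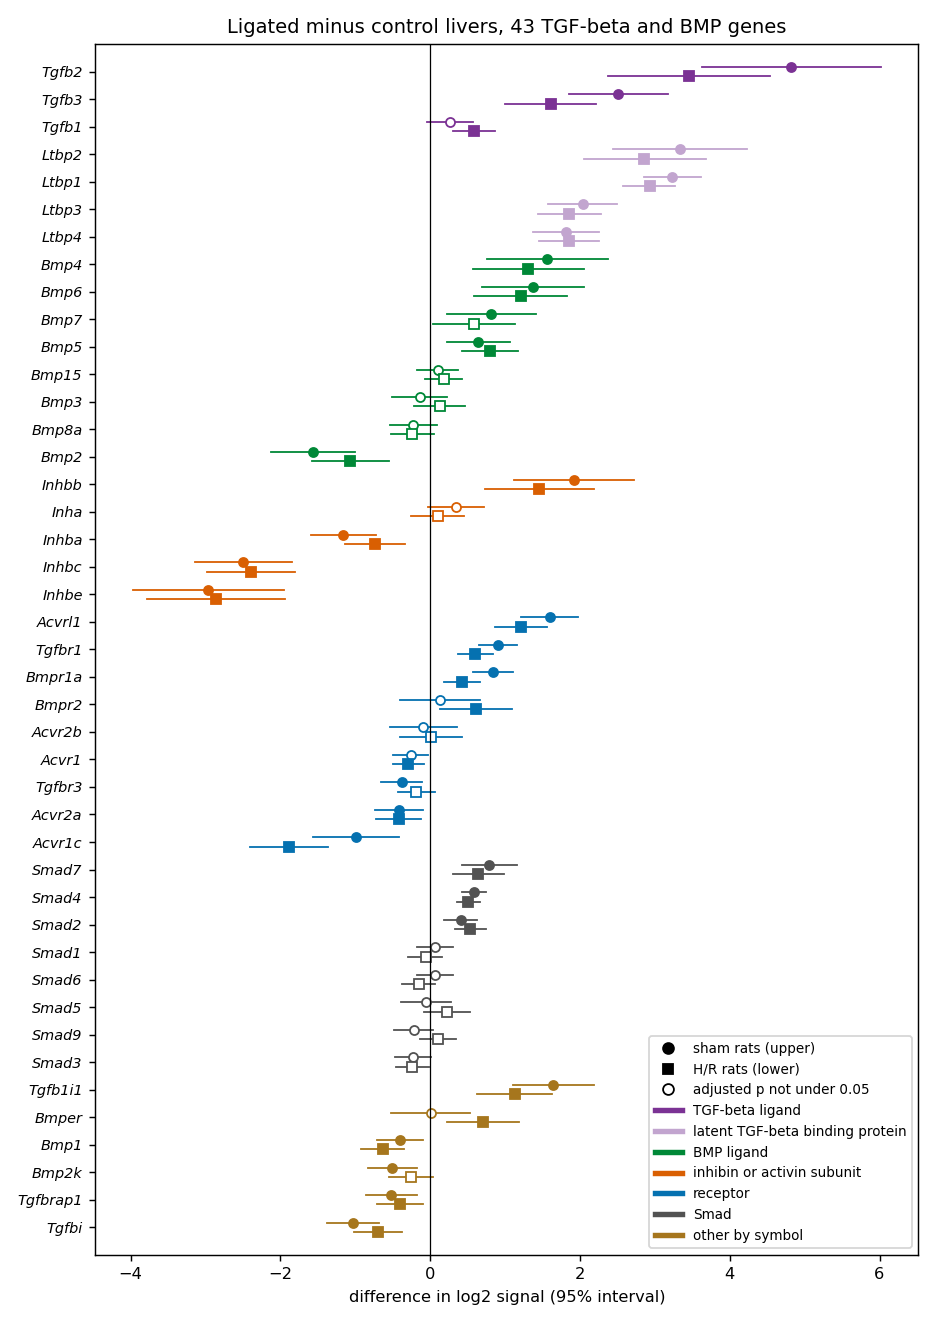
Difference in log2 signal between ligated and control livers for the 43 genes, ordered by role, with 95% intervals from limma; circles are sham rats (n = 5 and 5), squares are H/R rats (n = 6 and 6), and open symbols did not pass an adjusted p of 0.05. Tgfb2, Ltbp1 and Ltbp2 lie furthest to the right (up to 4.82) and Inhbe and Inhbc furthest to the left (down to -2.96), in sham and H/R rats.

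Among the TGF-beta ligands, Tgfb2 and Tgfb3 passed and Tgfb1 did not. Tgfb2 had log2 signals of 6.97, 8.09, 8.41, 8.51 and 8.83 in ligated sham livers, against 2.92, 3.13, 3.20, 3.31 and 4.14 in control sham livers. No array overlapped, and the control mean of 3.34 lay under its background of 4.51, so the gene rose at least 12.5-fold (log2 difference 4.82 ± 0.59 SE, adjusted p = 3.3e-08). A second, dimmer Tgfb2 probe set averaged 7.57 in ligated sham livers and 3.94 in control sham livers, and the mean of both gave a log2 difference of 4.23. Tgfb3 had 6.30, 6.79, 7.13, 7.56 and 7.70 in ligated sham livers, against 4.11, 4.22, 4.60, 4.93 and 5.04 in control sham livers. Its groups did not overlap either, and it rose 5.71-fold (log2 2.51 ± 0.33, adjusted p = 1.3e-07). The Tgfb3 control mean of 4.58 was just above the background of 4.51. Tgfb1, the isoform best known from platelets and macrophages, had 3.28 to 3.63 in ligated sham livers and 3.05 to 3.42 in control sham livers, under background in both groups (log2 0.27 ± 0.15, adjusted p = 0.14). The most studied isoform was thus not above background in either group, as read from its only probe set here. A weak probe set and a low level of the RNA cannot be told apart.

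The latent TGF-beta binding proteins are matrix proteins related to fibrillin. Ltbp1, Ltbp3 and Ltbp4 bind latent TGF-beta and anchor it in the matrix, and Ltbp2 is an elastic fibre protein that does not bind it. Ltbp1 had the smallest adjusted p of the 43 genes, with 7.79, 8.50, 8.55, 8.88 and 9.01 in ligated sham livers, against 5.00, 5.09, 5.25, 5.56 and 5.68 in control sham livers. The lowest ligated array stood more than 2 log2 units above the highest control array, and the gene rose 9.37-fold (log2 3.23 ± 0.19, adjusted p = 4.2e-15). Ltbp2 had 6.72, 7.74, 7.94, 8.21 and 8.67 in ligated sham livers, against 3.54, 4.12, 4.66, 5.03 and 5.25 in control sham livers, and rose 10.1-fold (log2 3.33 ± 0.44, adjusted p = 1.7e-07). Its control mean of 4.52 was just above the background of 4.51. Ltbp3 had 6.16, 6.96, 7.18, 7.21 and 7.40 in ligated sham livers, against 4.38, 4.93, 4.97, 5.19 and 5.25 in control sham livers, a 4.11-fold rise (log2 2.04 ± 0.23, adjusted p = 5.9e-09). Ltbp4 had 6.87, 7.04, 7.75, 7.75 and 7.80 in ligated sham livers, against 5.26, 5.52, 5.68, 5.80 and 5.89 in control sham livers, a 3.51-fold rise (log2 1.81 ± 0.22, adjusted p = 2.6e-08). None of the 4 genes had overlapping groups, and their median log2 difference was 2.63. The share of all genes without overlapping groups was not counted, so such separation, for these and the other genes described, has no baseline. These rises also passed under each alternative run, array centring included. The Ltbp1 promoter is shown because it is the gene with the smallest adjusted p and its window holds a GC-rich SMAD element, whose letters GGCGCC are in capitals. The element begins at base 36, the annotated start being the first base. The RefSeq sequence is that at chr6:26177252-26177551 of rat build GRCr8, minus strand, printed 5′ to 3′ as transcribed:
Ltbp1: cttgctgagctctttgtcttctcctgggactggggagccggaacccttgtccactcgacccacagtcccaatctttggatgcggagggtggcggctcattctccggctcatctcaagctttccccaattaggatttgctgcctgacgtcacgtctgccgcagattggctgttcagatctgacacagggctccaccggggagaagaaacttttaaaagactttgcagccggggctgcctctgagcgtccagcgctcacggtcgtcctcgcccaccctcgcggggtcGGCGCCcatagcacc

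**Figure D2:**
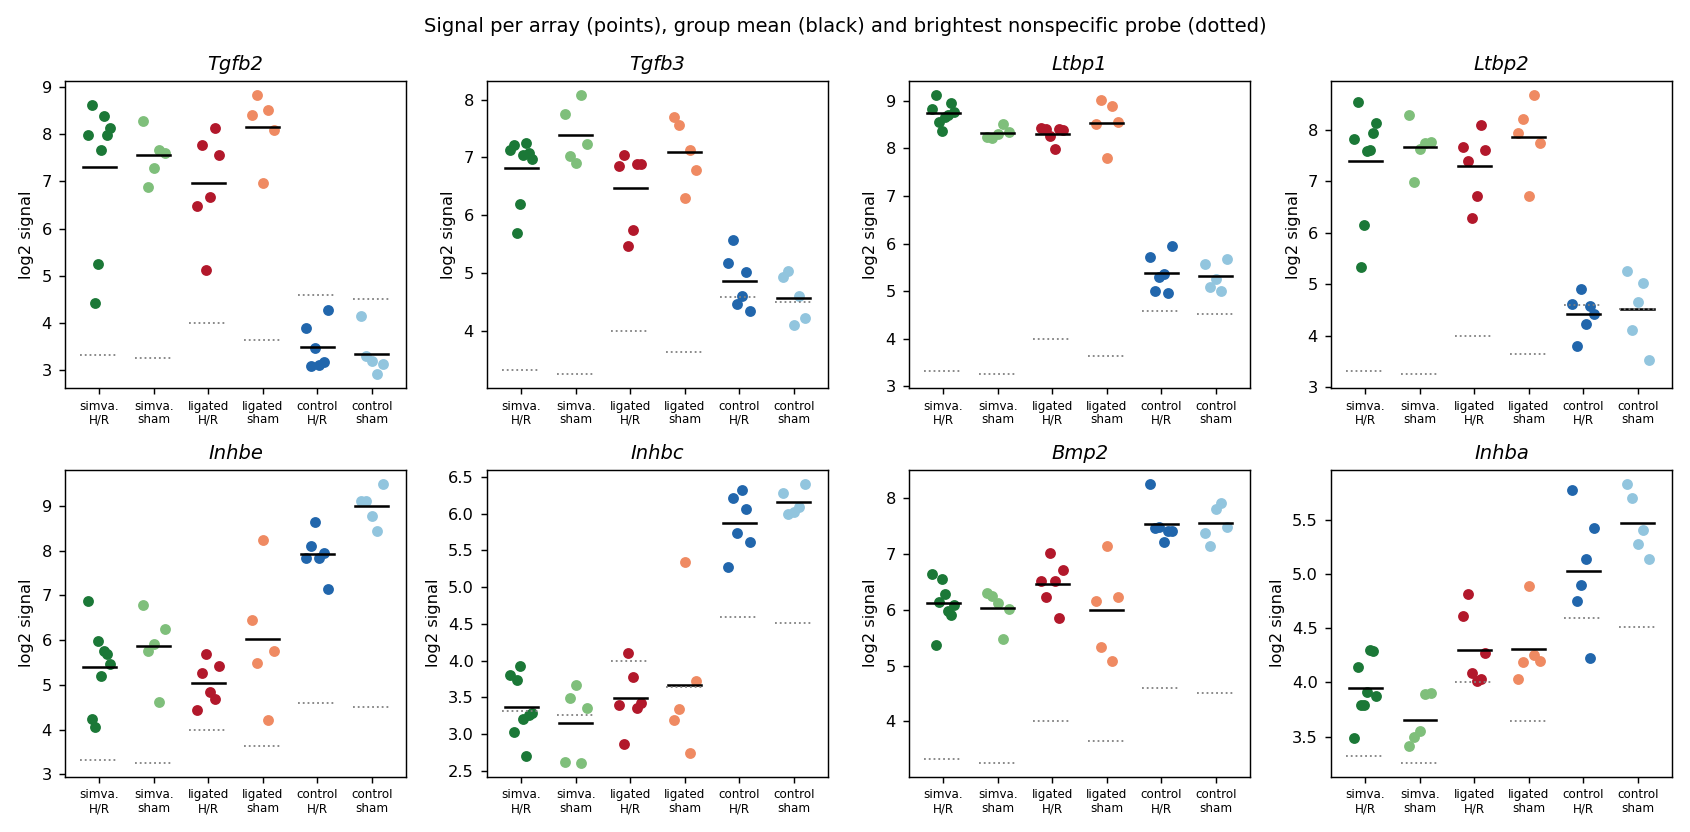
Log2 signal on each array (points), with the group mean (black line) and the group's background (dotted line), for the 4 genes of largest rise and the 4 of largest fall after ligation, in simvastatin H/R, simvastatin sham, ligated H/R, ligated sham, control H/R and control sham livers. Each ligated group, with or without simvastatin, sits apart from both control groups for Ltbp1, whose lowest ligated array is at 7.79 and whose highest control array is at 5.95.

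Of the 8 BMP ligand genes 4 rose and 1 fell, beside 25.3% of all genes that rose and 22.4% that fell. Bmp4 had 4.12, 4.61, 5.17, 6.03 and 6.44 in ligated sham livers, against 3.04, 3.44, 3.70, 3.87 and 4.50 in control sham livers. The lowest ligated array lay inside the control range, the control mean was under background, and the gene rose at least 1.60-fold (log2 1.56 ± 0.40, adjusted p = 0.0016). Bmp6, which liver sinusoidal endothelium makes to induce hepcidin, had 5.37, 5.90, 5.90, 6.19 and 6.44 in ligated sham livers, against 4.35, 4.44, 4.56, 4.63 and 4.96 in control sham livers. Its groups did not overlap and it rose 2.59-fold (log2 1.37 ± 0.33, adjusted p = 0.001). The Bmp6 control mean of 4.59 was just above the background of 4.51. The 3 dimmer Bmp6 probe sets differed by 0.84, -0.53 and -0.24, and the mean of all 4 gave a log2 difference of 0.36 (adjusted p = 0.03). Bmp7 and Bmp5 rose at least 1.26-fold and 1.56-fold (log2 0.81 ± 0.29 and 0.64 ± 0.20, adjusted p = 0.022 and 0.0098). The Bmp7 call was lost without control sham replicate 3 or ligated sham replicate 1 or 5 (adjusted p = 0.056 to 0.075), the Bmp5 call without control sham replicate 2 (0.05), and both after array centring and after repeated quantile normalization. Bmp2, a second endothelial inducer of hepcidin, fell. It had 5.08, 5.34, 6.15, 6.22 and 7.15 in ligated sham livers, against 7.14, 7.37, 7.49, 7.81 and 7.92 in control sham livers, so that 1 ligated array touched the control range. Its fall was 2.95-fold (log2 -1.56 ± 0.28, adjusted p = 2.1e-05), and its second probe set differed by -1.10. Bmp15, Bmp3 and Bmp8a were above background in no group.

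The inhibin and activin subunits moved in opposite directions. Inhbe, a hepatocyte-enriched subunit induced by endoplasmic reticulum stress and insulin, had 4.21, 5.50, 5.76, 6.46 and 8.23 in ligated sham livers, against 8.45, 8.78, 9.12, 9.12 and 9.50 in control sham livers. The groups did not overlap, but the ligated arrays spread over about 4 log2 units, and the fall was 7.79-fold (log2 -2.96 ± 0.50, adjusted p = 8.7e-06). Inhbc, the other hepatocyte-enriched subunit, had 2.74, 3.19, 3.34, 3.72 and 5.34 in ligated sham livers, against 6.00, 6.03, 6.09, 6.28 and 6.41 in control sham livers. Its ligated mean of 3.67 was just above the background of 3.64, and the fall was 5.64-fold (log2 -2.50 ± 0.32, adjusted p = 7.2e-08). Inhba, the subunit of activin A, had 4.03, 4.19, 4.20, 4.25 and 4.89 in ligated sham livers, against 5.14, 5.27, 5.40, 5.70 and 5.83 in control sham livers. It fell 2.23-fold with no overlap (log2 -1.16 ± 0.21, adjusted p = 3.8e-05). Inhbb, the subunit of activin B, had 6.08, 7.04, 7.53, 7.68 and 8.37 in ligated sham livers, against 4.62, 5.02, 5.17, 5.78 and 6.49 in control sham livers. It rose 3.80-fold with 1 ligated array inside the control range (log2 1.92 ± 0.39, adjusted p = 0.00014). Inha, the inhibin alpha subunit, was above background in no group. The Inhbe promoter is shown because the gene had the largest fall and was the only one of 37 pathway promoters with a C/EBP-ATF composite element, TGATGNAA. The match lies on the opposite strand, beginning 228 bases before the start, and is in capitals in the RefSeq sequence at chr7:65064470-65064769 of GRCr8, minus strand:
Inhbe: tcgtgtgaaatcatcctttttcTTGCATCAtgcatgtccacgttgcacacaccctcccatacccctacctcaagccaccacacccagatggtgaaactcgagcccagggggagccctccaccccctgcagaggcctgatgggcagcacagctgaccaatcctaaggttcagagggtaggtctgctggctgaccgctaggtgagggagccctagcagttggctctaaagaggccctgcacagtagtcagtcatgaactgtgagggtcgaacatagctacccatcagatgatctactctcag

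Of 9 receptor genes 3 rose, 3 fell and 3 did not pass, beside 25.3% of all genes that rose and 22.4% that fell. Acvrl1, an endothelial type I receptor for BMPs, had 4.47, 5.09, 5.12, 5.31 and 5.51 in ligated sham livers, against 3.23, 3.45, 3.46, 3.50 and 3.88 in control sham livers. The groups did not overlap, and with the control mean under background the rise was at least 1.51-fold (log2 1.60 ± 0.19, adjusted p = 2e-08). Tgfbr1, the type I receptor for TGF-beta, had 8.47, 8.50, 8.63, 8.78 and 8.81 in ligated sham livers, against 7.62, 7.64, 7.74, 7.75 and 7.92 in control sham livers, and rose 1.87-fold (log2 0.91 ± 0.13, adjusted p = 4.3e-07). Bmpr1a, the main BMP type I receptor of hepatocytes, rose 1.79-fold, with 6.90 to 7.31 in ligated sham livers and 6.20 to 6.48 in control sham livers (log2 0.84 ± 0.13, adjusted p = 2.8e-06). Neither gene's groups overlapped. Acvr1c, a type I receptor of the activin branch, had 4.11, 4.17, 4.37, 4.94 and 5.19 in ligated sham livers, against 5.23, 5.38, 5.62, 5.69 and 5.78 in control sham livers. It fell 1.98-fold, the groups being separated by a narrow gap (log2 -0.99 ± 0.28, adjusted p = 0.0044). Acvr2a, a type II receptor for activins and BMPs, fell 1.33-fold (log2 -0.41 ± 0.16, adjusted p = 0.032), with 6.01 to 6.51 in ligated sham livers and 6.48 to 6.88 in control sham livers. That call was lost without control sham replicate 2, 4 or 5 or ligated sham replicate 2 or 4 (adjusted p = 0.052 to 0.089). Tgfbr3, the coreceptor betaglycan, passed downward (log2 -0.38 ± 0.13, adjusted p = 0.019) with both groups under background, and lost its call without control sham replicate 2 or 4 or ligated sham replicate 4 (adjusted p = 0.059 to 0.084) and in a fit of these groups alone. Acvr1, Acvr2b and Bmpr2 did not pass, and Acvr1 differed by -0.26 (95% interval -0.49 to -0.03, adjusted p = 0.053). The dimmer probe sets of Acvr1, a type I receptor for BMPs, differed by more, -0.79 and -0.69. Tgfbr2, Acvr1b and Bmpr1b were not analysed here.

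By their brightest probe sets Smad7, Smad4 and Smad2 rose, none of the 8 Smad genes fell, and the BMP-branch Smad1 and Smad5 did not pass. Over all genes 25.3% rose and 22.4% fell. Smad7, the inhibitory Smad of the TGF-beta branch, had 5.77, 5.89, 5.92, 6.01 and 6.51 in ligated sham livers, against 4.80, 5.01, 5.22, 5.24 and 5.88 in control sham livers. The ranges overlapped by 1 array on each side, and the gene rose 1.73-fold (log2 0.79 ± 0.18, adjusted p = 0.00051). Smad4, the common partner, had 8.05 to 8.15 in ligated sham livers and 7.45 to 7.70 in control sham livers, a 1.49-fold rise without overlap (log2 0.58 ± 0.08, adjusted p = 3.1e-07). Smad2 rose 1.32-fold (log2 0.41 ± 0.11, adjusted p = 0.0029) and lost that call after array centring. The dimmer probe sets of Smad7 differed by -0.01 and 0.21 and that of Smad4 by 0.08, so these rises rest on the brightest probe set of each gene. Smad1 differed by 0.07 (95% interval -0.18 to 0.31) and Smad5 by -0.06 (-0.39 to 0.28). A dimmer Smad1 probe set averaged 5.91 in ligated sham and 6.29 in control sham livers, above background in both. It differed by -0.38 in sham rats and -0.37 in H/R rats and was not tested by itself. Smad6, the inhibitory Smad of the BMP branch, had 4.33, 4.33, 4.42, 4.57 and 4.70 in ligated sham livers, against 4.19, 4.34, 4.44, 4.53 and 4.54 in control sham livers, and its groups overlapped almost fully (log2 0.06 ± 0.12, adjusted p = 0.70). Smad3 and Smad9 were above background in no group. The Smad7 promoter is shown as that of a textbook TGF-beta-induced gene. In the RefSeq sequence at chr18:71263258-71263557 of GRCr8, plus strand, the GC-rich element GGCGCC occurs at 2 places, 96 and 36 bases before the start:
Smad7: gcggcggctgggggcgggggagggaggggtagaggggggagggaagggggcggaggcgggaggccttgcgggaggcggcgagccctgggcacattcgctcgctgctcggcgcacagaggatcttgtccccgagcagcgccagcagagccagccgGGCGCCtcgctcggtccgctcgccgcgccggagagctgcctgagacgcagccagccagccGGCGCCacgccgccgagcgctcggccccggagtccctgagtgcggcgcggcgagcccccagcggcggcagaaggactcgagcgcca

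Both strands of the 300-base windows (250 bases before to 50 after the start) were searched for 6 motifs, none of which contains another. RefSeq windows were found for 37 of the 43 genes and compared with all 33469 promoters of the table. GGCGCC occurred in 12 of the 37 windows (32.4%), against 11% of all promoters, and its holders included genes that rose (Ltbp1, Inhbb, Smad2, Smad7, Tgfbr1), genes that fell (Acvr2a, Bmp2k, Tgfbi, Tgfbr3) and genes that did not pass in sham rats (Bmper, Smad3, Smad9). TGATGNAA occurred in 3.98% of all promoters and in Inhbe alone among the 37. The SMAD box palindrome GTCTAGAC occurred in 0 of the 37 and 0.197% of all, the SMAD box with flank CAGACA in 7 and 21.1%, the TEAD site GGAATG in 4 and 14.2%, and the AP-1 site TGANTCA in 1 (Bmpr1a) and 7.33%. These are letter matches, and nothing was measured at them. GGCGCC holds only G and C, and the base composition of the 37 windows was not compared with that of all promoters.

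Of the 6 genes taken in by name, 1 rose and 4 fell, beside 25.3% of all genes that rose and 22.4% that fell. Tgfb1i1, a focal adhesion adaptor of contractile cells, had 5.78, 6.43, 6.83, 7.04 and 7.18 in ligated sham livers, against 4.28, 4.79, 5.03, 5.14 and 5.80 in control sham livers. It rose 3.13-fold, the ranges just touching (log2 1.64 ± 0.27, adjusted p = 6.2e-06). Tgfbi, a matrix protein first found as a TGF-beta-induced transcript, went the other way. It had 8.59, 8.68, 9.02, 9.07 and 9.28 in ligated sham livers, against 9.84, 9.89, 9.89, 9.99 and 10.17 in control sham livers, a 2.04-fold fall without overlap (log2 -1.03 ± 0.17, adjusted p = 8.5e-06). Smaller falls were those of Tgfbrap1, which binds inactive TGF-beta receptors (1.44-fold, adjusted p = 0.01), Bmp2k, a kinase induced by BMP2 (1.42-fold, adjusted p = 0.0089), and Bmp1, the procollagen C-proteinase (1.32-fold, adjusted p = 0.028). Tgfbrap1 lost its call without ligated sham replicate 2 (adjusted p = 0.06). Bmp1 lost it without control sham replicate 1, 2 or 3 or ligated sham replicate 4 or 5 (adjusted p = 0.052 to 0.14), and in a fit of these groups alone.

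Comparing ligated H/R with control H/R livers put the same question in arrays that share none with the sham comparison. Both comparisons came from the same fit over all arrays and share its error estimate for each gene, so their calls are not independent. Title endings and hybridisation controls separate ligated from control arrays in both, so ligation and any processing batch cannot be told apart in either. Of the 43 genes 30 (69.8%) passed, 20 higher and 10 lower in ligated H/R livers, against 47.0% of all genes (24.7% higher and 22.3% lower). The 2 comparisons shared 26 genes in the same direction, 17 rises and 9 falls, which is 89.7% of the sham calls and 86.7% of the H/R calls. Over all genes the shared calls were 77.0% and 78.1%. Ltbp1 had 7.98, 8.40 and 8.42 (lowest, median and highest) in ligated H/R livers, against 4.97, 5.32 and 5.95 in control H/R livers, and rose 7.61-fold (log2 2.93 ± 0.17, adjusted p = 4.2e-15). Tgfb2 had 5.13, 7.12 and 8.12 in ligated H/R livers, against 3.08, 3.33 and 4.28 in control H/R livers, and rose at least 5.14-fold (log2 3.46 ± 0.53, adjusted p = 2.5e-06). Neither gene's groups overlapped. Inhbe had 4.43, 5.05 and 5.70 in ligated H/R livers, against 7.14, 7.89 and 8.64 in control H/R livers, and fell 7.28-fold (log2 -2.86 ± 0.45, adjusted p = 3.5e-06). Acvr1c had 2.84, 4.29 and 4.93 in ligated H/R livers, against 5.66, 5.95 and 6.34 in control H/R livers, and fell 3.71-fold (log2 -1.89 ± 0.26, adjusted p = 2.8e-07). Those groups also stood apart.

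The other shared rises in H/R rats were those of Ltbp2 (at least 5.70-fold), Ltbp4 (3.61-fold), Ltbp3 (3.63-fold), Tgfb3 (3.06-fold), Inhbb (2.74-fold), Tgfb1i1 (2.19-fold), Bmp6 (at least 1.83-fold), Bmp5 (1.74-fold), Smad7 (1.56-fold), Tgfbr1 (1.52-fold), Smad2 (1.45-fold), Smad4 (1.42-fold), Acvrl1 (at least 1.39-fold), Bmpr1a (1.33-fold) and Bmp4 (at least 1.15-fold). The shared falls were those of Inhbc (at least 3.60-fold), Bmp2 (2.10-fold), Inhba (1.66-fold), Tgfbi (1.63-fold), Bmp1 (1.55-fold), Acvr2a (1.34-fold) and Tgfbrap1 (1.32-fold). With the mean of its 4 probe sets Bmp6 no longer passed in H/R rats (log2 0.16, adjusted p = 0.31). The calls of Acvr2a and Tgfbrap1 were lost when 1 of certain arrays was left out, ligated H/R replicates 2 and 4 and control H/R replicate 4 for Acvr2a (adjusted p = 0.054 to 0.06), and ligated H/R replicates 1 and 2 and control H/R replicates 2 and 3 for Tgfbrap1 (0.074 to 0.1), which also lost it in a fit of these groups alone. Bmpr2, the BMP type II receptor, rose 1.53-fold in H/R rats (adjusted p = 0.033) and lost its call with the mean of its probe sets (log2 0.22), after repeated quantile normalization and without ligated H/R replicate 1 or 3 or control H/R replicate 2 or 3 (0.052 to 0.13). Acvr1 fell 1.22-fold in H/R rats (adjusted p = 0.02), a call lost without ligated H/R replicate 4 (0.056). The mean of its 3 probe sets gave a larger fall (log2 -0.66, adjusted p = 5.7e-06). Tgfb1 passed upward (log2 0.59 ± 0.14, adjusted p = 0.00062), as did Bmper, a secreted BMP binder (log2 0.71 ± 0.24, adjusted p = 0.013, and 0.052 without ligated H/R replicate 1), with both groups under background for each. Array centring gave 18 rises and 15 falls in this comparison, with a median over all genes of -0.19 in place of -0.03, and ended the calls of Bmpr1a and Bmpr2.

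Genes of the pathway outside the symbol rule were read from 7 lists, to be set against the 25.3% of all genes that rose and the 22.4% that fell in the sham comparison. In ligated sham livers 13 of 18 TGF-beta target genes rose and 1 fell (median log2 1.30), 9 of 15 genes that activate or hold latent TGF-beta rose and 0 fell (0.77), and 10 of 18 intracellular regulators rose and 3 fell (0.46). Itgb6, the epithelial integrin subunit that activates latent TGF-beta, averaged 9.03 ± 0.66 (SD, n = 5) in ligated sham livers and 2.95 ± 0.81 (n = 5) in control sham livers, and rose at least 22.4-fold (log2 6.08 ± 0.48 SE, adjusted p = 3.5e-12). The matrix scaffold Fbn1 rose 5.93-fold, the protease Mmp2 4.95-fold and Itgb1 2.63-fold. Pmepa1, an inhibitor induced by TGF-beta, rose 12.1-fold (log2 3.60 ± 0.31, adjusted p = 3.3e-11), the Smad corepressor Ski 2.27-fold, Tab1 1.97-fold and the ubiquitin ligase Smurf1 at least 1.67-fold. Among targets, Tagln rose 12.2-fold, Ccn2 10.5-fold, Col1a2 4.02-fold and Col1a1 at least 3.72-fold (adjusted p = 1.2e-06 to 6.9e-10), all of them genes of contractile or collagen-producing cells, and the one fall was that of Junb (1.81-fold), named after its value was seen. With the mean of all probe sets the log2 differences of Mmp2, Pmepa1 and Fstl3 were 0.97, 2.93 and 2.62, in place of 2.31, 3.60 and 3.48, and each still passed.

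Of the 10 BMP target genes 2 rose and 1 fell, shares no higher than the 25.3% and 22.4% of all genes, and their median log2 difference was 0.00. Id1, an inhibitor of basic helix-loop-helix factors and a direct BMP target, averaged 7.05 ± 0.42 (SD, n = 5) in ligated sham livers and 4.90 ± 0.30 (n = 5) in control sham livers, and rose 4.44-fold (log2 2.15 ± 0.23 SE, adjusted p = 3.5e-09). Id2 rose 1.99-fold (adjusted p = 0.0022), Id3 differed by 0.40 (adjusted p = 0.20) and Msx2, under background in both groups, by -0.38 (adjusted p = 0.051). Hamp, which encodes hepcidin, averaged 10.98 ± 0.51 in ligated sham livers and 12.20 ± 0.21 in control sham livers (SD, n = 5 each) and fell 2.34-fold (log2 -1.23 ± 0.36, adjusted p = 0.0053). In H/R rats Id1 rose 2.09-fold and Hamp fell 2.91-fold, while Id2 did not pass (log2 0.53, adjusted p = 0.07), so that 1 of the 10 rose and 1 fell there. Hjv, the hemojuvelin coreceptor that hepatocytes need for hepcidin, fell 2.37-fold (adjusted p = 0.0085), while its relatives Rgma and Rgmb rose at least 1.56-fold and 1.37-fold. Neo1, a receptor for these proteins, rose 1.52-fold, a call lost with the mean of its probe sets (log2 0.10, adjusted p = 0.41), and it did not pass in H/R rats (log2 0.34, adjusted p = 0.079). Eng, the endothelial coreceptor endoglin, differed by 0.32 (adjusted p = 0.092). Of 6 coreceptors measured 3 rose and 1 fell.

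Of 19 secreted antagonists and modulators 10 rose and 3 fell (median log2 0.44), against 25.3% and 22.4% of all genes. The activin binders Fstl3 and Fst rose at least 4.56-fold and 2.90-fold, Fstl1 4.03-fold and the TGF-beta-binding proteoglycan Bgn 3.85-fold (adjusted p = 5.2e-08 to 3e-10). Bambi, a pseudoreceptor that dampens signalling, rose 2.18-fold (adjusted p = 0.0014). None of the 7 ligands outside the symbol rule rose and 3 (Gdf10, Amh and Gdf9) fell with both groups under background, while Gdf15 differed by -1.06 (adjusted p = 0.058). The Amh call was lost without control sham replicate 1 or 5 or ligated sham replicate 4 (adjusted p = 0.058 to 0.1), the Gdf9 call without control sham replicate 1, 4 or 5 or ligated sham replicate 4 or 5 (0.063 to 0.14), and both after repeated quantile normalization and in a fit of these groups alone. Gdf2 was not analysed here.

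**Figure D3:**
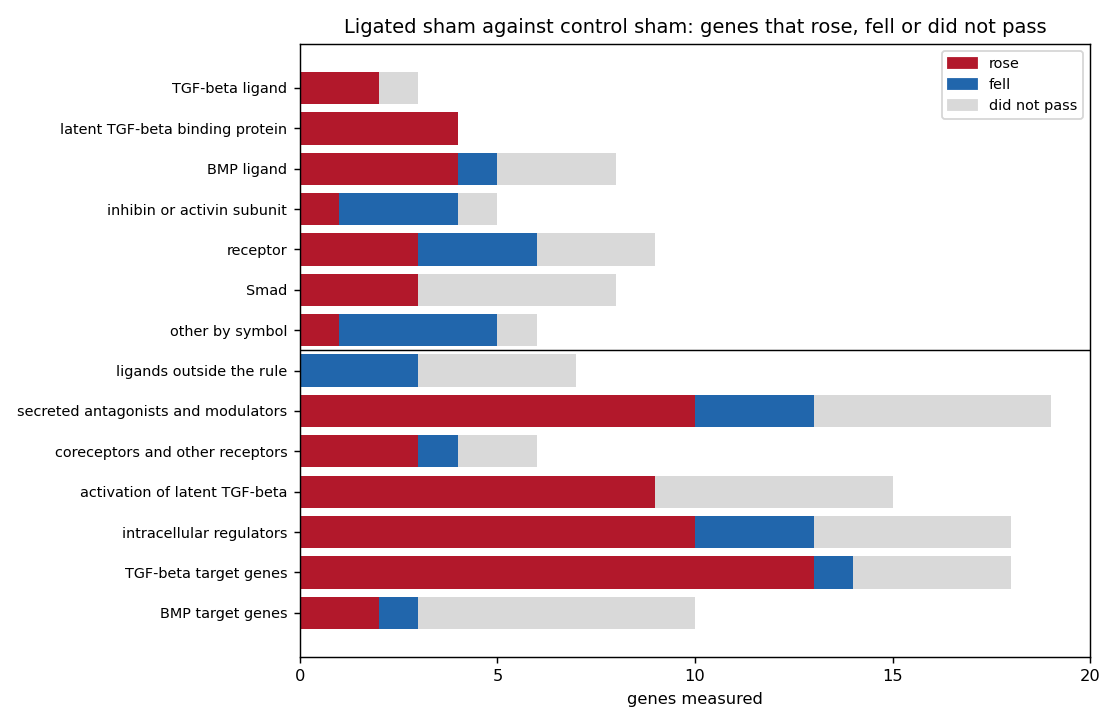
Number of genes that rose (red), fell (blue) or did not pass an adjusted p of 0.05 (grey) in ligated sham against control sham livers, for the 43 genes by role (above the line) and for 7 lists of other pathway genes (below it). All 4 latent TGF-beta binding proteins and 13 of 18 TGF-beta target genes rose, against 2 of 10 BMP target genes.

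Markers of bile duct epithelium and of stellate cells moved with ligation as well, in a comparison where 25.3% of all genes rose and 22.4% fell. Of 9 duct markers 8 rose, the list averaging 8.54 ± 0.51 (SD, n = 5) in ligated sham livers and 4.69 ± 0.32 (n = 5) in control sham livers, and summing to 68.9 to 79.6 and to 38.0 to 45.7 log2 units. Krt19 and Epcam led the list at 10.00 and 11.20 in ligated sham livers, and Sox9 was under background in both groups. Of 11 stellate and myofibroblast markers 10 rose (list mean 6.97 ± 0.38 in ligated sham livers and 5.68 ± 0.07 in control sham livers, sums of 71.9 to 83.4 and 61.6 to 63.4). As drawn up, this list shares Acta2, Col1a1, Col1a2 and Col3a1 with the TGF-beta target list and Dcn with the antagonist list. The counts of these lists are therefore not separate observations. Of 9 hepatocyte markers 4 fell (12.48 ± 0.09 in ligated sham livers and 12.80 ± 0.07 in control sham livers, sums of 111.5 to 113.3 and 114.6 to 116.1). Their part in the changes of the pathway genes was not tested.

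Within the 24 ligated arrays, 6 of the genes that changed most also varied with the duct markers. Inhbe, the gene of largest fall, and Inhba did not pass. Deviations from group means were correlated for the 4 genes of largest rise and the 4 of largest fall with 2 marker lists, 16 relations in all, with p-values from 100000 permutations. Tgfb3 followed the duct list most closely (Pearson r = 0.89, Spearman rho = 0.84), with r = 0.84 after leaving out the 2 arrays farthest from the median of the list. Inhbc ran against it (r = -0.82, rho = -0.85, and -0.78 without those arrays). Tgfb2, Ltbp2 and Ltbp1 gave r = 0.81, 0.81 and 0.79 (rho = 0.64, 0.59 and 0.73) and Bmp2 gave r = -0.68 (rho = -0.64), and these 4 stayed at 0.74, 0.70, 0.72 and -0.65 without the 2 arrays. All 6 had adjusted permutation p-values of 5.3e-05 to 0.00027 for r and 8e-05 to 0.0085 for rho. The median r of all genes with the list was -0.03. This median is signed, so positive and negative relations cancel in it, and it gives no baseline for the size of r. How closely other genes changed by ligation follow the list was not tested. Within arrays of one group and one title ending (20 arrays) the r values were 0.93 for Tgfb3, -0.78 for Inhbc, 0.88 for Tgfb2, 0.84 for Ltbp2, 0.68 for Ltbp1 and -0.47 for Bmp2. Inhbe (r = -0.38, rho = -0.34, adjusted p = 0.10 and 0.14) and Inhba (r = 0.21, rho = 0.41, adjusted p = 0.36 and 0.088) did not pass with the duct list, and without the 2 farthest arrays they were at -0.45 and 0.57. Within title endings their r was 0.11 for Inhbe, with the sign turned, and 0.56 for Inhba. With the stellate list r passed for Ltbp1 (0.51, adjusted permutation p = 0.025) and Inhbe (-0.49, adjusted permutation p = 0.028), but rho did not (0.44 and -0.44, adjusted permutation p = 0.067 for each), and r was 0.38 and -0.45 without the 2 farthest arrays and 0.29 and -0.24 within title endings. The other 6 relations with the stellate list did not pass, with r between -0.43 and 0.34.

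**Figure D4:**
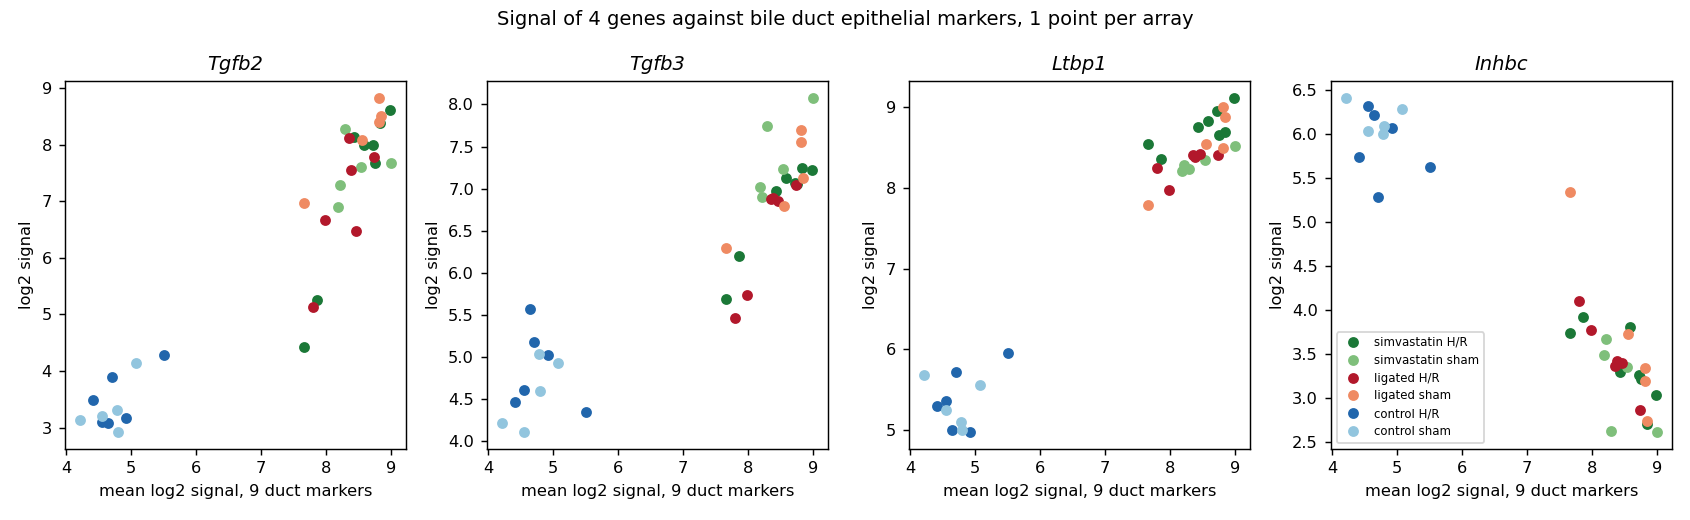
Log2 signal of Tgfb2, Tgfb3, Ltbp1 and Inhbc against the mean log2 signal of 9 bile duct markers, 1 point per array, coloured by group. The 11 control arrays form a cluster at low duct signal, and among the 24 ligated arrays Tgfb3 rises with the duct markers (r = 0.89 of deviations from group means) while Inhbc declines (r = -0.82).

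Hemorrhage and resuscitation moved none of the 43 genes past the threshold in limma, in control, ligated or simvastatin-treated rats. In control rats 0 of 43 passed, against 0.856% of all genes (0.365% higher and 0.491% lower), and 5 had an unadjusted p under 0.05. Inhbb had 5.35, 6.53 and 7.58 (lowest, median and highest) in control H/R livers, against 4.62, 5.02, 5.17, 5.78 and 6.49 in control sham livers. It was 1.15 ± 0.38 log2 units higher with overlapping groups (95% interval 0.38 to 1.91, adjusted p = 0.15). Tgfbrap1 differed by -0.41 ± 0.16 and Tgfbr1 by 0.29 ± 0.12 (adjusted p = 0.25 and 0.30), and Inhbe by -1.08 ± 0.47 (adjusted p = 0.32). In ligated rats 0 of 43 passed, against 0.134% of all genes (0.119% higher and 0.0149% lower), with 5 at an unadjusted p under 0.05. Bmp2k had 6.39, 6.91 and 7.14 in ligated H/R livers, against 6.12, 6.13, 6.33, 6.43 and 6.74 in ligated sham livers (log2 0.49 ± 0.15, adjusted p = 0.21). It passed when the 3 arrays of low correlation were left out (log2 0.59 ± 0.15, adjusted p = 0.048), the one member to do so. Tgfb2 had 5.13, 7.12 and 8.12 in ligated H/R livers, against 6.97, 8.09, 8.41, 8.51 and 8.83 in ligated sham livers (log2 -1.21 ± 0.56, 95% interval -2.35 to -0.07, adjusted p = 0.46). Bmper and Bmp1 differed by 0.75 and -0.32 (adjusted p = 0.25 and 0.45). In simvastatin-treated rats 0 of 43 passed, against 0% of all genes, with 4 at an unadjusted p under 0.05, and the smallest p-values were those of Bmper, Bmp3 and Ltbp1 (log2 0.65, 0.43 and 0.42, adjusted p = 0.85 for each).

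Simvastatin in ligated rats moved none of the 43 genes past the threshold either. In sham rats 0 of 43 passed in limma, against 0.781% of all genes (0.632% higher and 0.149% lower), with 1 at an unadjusted p under 0.05. That gene, Inhba, had 3.41, 3.50, 3.55, 3.89 and 3.90 in simvastatin sham livers, against 4.03, 4.19, 4.20, 4.25 and 4.89 in ligated sham livers. The groups did not overlap, yet the difference of -0.66 ± 0.21 did not pass over all genes (95% interval -1.10 to -0.23, adjusted p = 0.17), and these groups share no title ending, so drug and any batch cannot be told apart. In H/R rats 0 of 43 passed, against 1.35% of all genes (0.848% higher and 0.506% lower), with 5 at an unadjusted p under 0.05. Ltbp1 had 8.36, 8.73 and 9.12 (lowest, median and highest) in simvastatin H/R livers, against 7.98, 8.40 and 8.42 in ligated H/R livers, with only the lowest treated array inside the untreated range (log2 0.43 ± 0.16, 95% interval 0.11 to 0.75, adjusted p = 0.18). Acvr1 differed by 0.26 ± 0.10 and Tgfbi by -0.38 ± 0.15 (adjusted p = 0.19 and 0.21). For the main ligands the intervals were wide: -0.67 to 1.37 for Tgfb2 in H/R rats and -1.81 to 0.58 in sham rats.

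Outside the 43 genes, 3 target genes passed under simvastatin in H/R rats, and they are named because they passed. Of 18 TGF-beta target genes 2 fell, and of 10 BMP target genes 1 rose. No gene of the other pathway lists passed. Over all genes 0.848% rose and 0.506% fell in this comparison. Id1 had 6.33, 6.86 and 7.63 (lowest, median and highest) in simvastatin H/R livers, against 5.63, 6.10 and 6.88 in ligated H/R livers, and rose 1.74-fold (log2 0.80 ± 0.20, adjusted p = 0.033). Col1a1, the main chain of type I collagen, had 4.64, 5.80 and 6.34 in simvastatin H/R livers, against 6.23, 6.51 and 7.24 in ligated H/R livers, and fell 1.89-fold (log2 -0.92 ± 0.21, adjusted p = 0.02). Loxl2, a collagen-crosslinking enzyme, had 4.83, 5.51 and 5.67 in simvastatin H/R livers, against 5.74, 6.17 and 6.80 in ligated H/R livers, and fell 1.78-fold without overlap (log2 -0.83 ± 0.20, adjusted p = 0.028). With the title ending as a block none of them passed (adjusted p = 0.73 for Id1, 0.83 for Col1a1 and 0.67 for Loxl2), nor did Id1 and Col1a1 in a fit of these groups alone. Only the ending e12 occurs in both groups, in simvastatin H/R replicates 1 and 4 and ligated H/R replicates 1 and 3. The blocked difference rests on those few arrays, so its failure to pass cannot decide about these calls. The log2 difference stayed at 0.69 to 1.12 for Id1, -1.01 to -0.77 for Col1a1 and -0.97 to -0.62 for Loxl2 over all 22 alternatives, the block included. Single arrays also decided these calls: ligated H/R replicates 1, 4 and 5 and simvastatin H/R replicates 2, 4, 5 and 6 for Id1 (adjusted p = 0.054 to 0.13), ligated H/R replicates 1 and 6 and simvastatin H/R replicate 6 for Col1a1 (0.05 to 0.065), and ligated H/R replicates 1, 4 and 6 and simvastatin H/R replicates 4 and 6 for Loxl2 (0.065 to 0.095). In sham rats none of the 3 passed under simvastatin, and the differences of the H/R effects with and without the drug were 0.71 for Id1, -0.78 for Col1a1 and -0.53 for Loxl2 (adjusted p = 0.96, 0.92 and 0.99).

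The H/R effect itself did not differ past the threshold between groups of rats for any of the 43 genes. Between ligated and control rats 0 of 43 passed in limma, against 0.00744% of all genes, with 3 at an unadjusted p under 0.05. The smallest p-values were those of Bmpr1a (log2 difference of effects -0.42, 95% interval -0.78 to -0.06) and Acvr1c (-0.90, -1.68 to -0.13), with an adjusted p of 0.85 for both. Between simvastatin-treated and untreated ligated rats 0 of 43 passed, against 0.00744% of all genes, with 1 at an unadjusted p under 0.05, and Ltbp1 had the smallest p (0.65, 95% interval 0.16 to 1.15, adjusted p = 0.81).

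**Figure D5:**
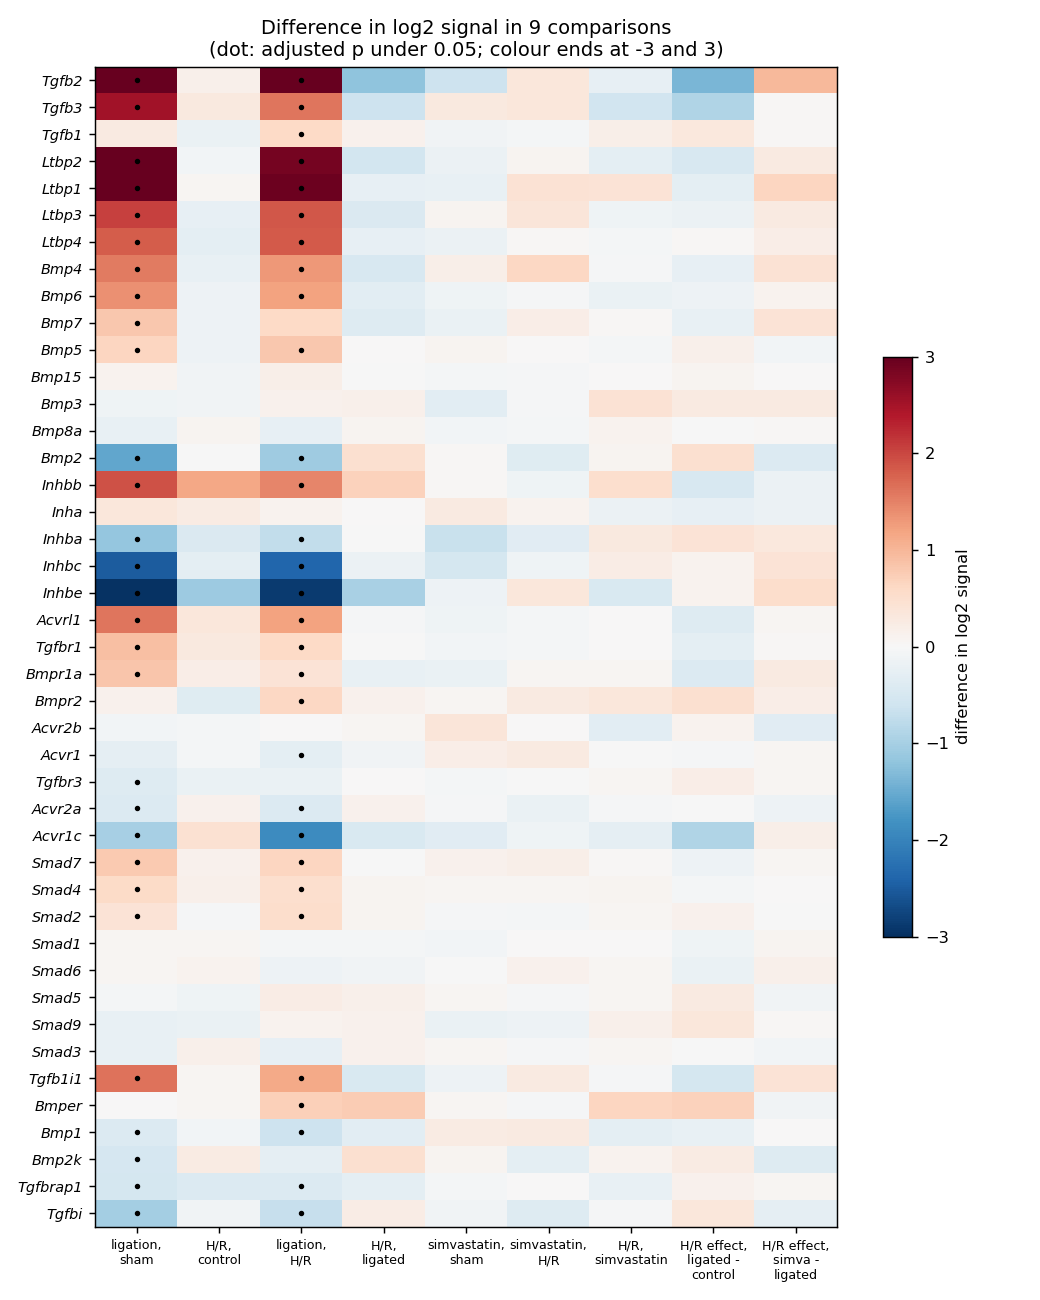
Difference in log2 signal of the 43 genes in 9 comparisons, red for higher and blue for lower in the group or effect named first, with a dot where the adjusted p is under 0.05; colours end at -3 and 3. Dots appear in the 2 ligation columns (29 and 30 genes) and in none of the other 7 columns.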

How the data were processed

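Rat liver RNA was measured in 35 samples on 1-colour Affymetrix arrays. The deposited values are normalized log2 signals per probe set, read as log2 from their range of 1.51 to 13.79. How they were normalized is not stated in the sources used here. Of 31139 probe sets, 19069 had 1 gene symbol, and the brightest over all arrays stood for each of 13439 genes. No 2 arrays were identical (highest r 0.992). limma 3.58.1 in R 4.3.3 fitted 1 mean per group over all 35 arrays, with Benjamini-Hochberg adjustment over all genes in each comparison and a threshold of 0.05; errors of log2 differences are standard errors. The fit was tested on simulated data. A fold against a group under background is given as at least the ratio to a floor, the group mean of, on each array, the higher of the background and the gene's own signal. Correlations used permutation tests. Alternatives were array centring, repeated quantile normalization, the mean of probe sets, a fit on the compared groups alone, the title ending as a block and leaving out each array. Further ones were limma's trend and robust options, only genes above the 30th percentile of mean signal, and leaving out the 3 arrays of low correlation. Members given in full were the up to 10 largest rises and falls among those past the threshold, or the 3 of smallest p where none passed, plus Tgfb1, Tgfb2, Tgfb3, Tgfbr1, Bmp2, Bmp6, Smad6, Smad7 and Inhbe; other pathway genes were up to 4 of each list by smallest p plus Id1, Id3, Hamp, Eng, Itgb6 and Bambi. Members and lists were chosen with earlier results of these data known. The number of arrays limits the precision.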

Additional observations from a re-analysis of the deposited data

Results flagged for a closer look

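Of 134 sets of 1 gene in 1 group, over 25 genes, 4 held an array far from the others by Dixon's criterion, and chance gives about 1 in 20. Ltbp3 was 7.81 in simvastatin sham replicate 1, with the nearest array of the group at 6.96. Bmp6 was 3.89 in simvastatin H/R replicate 3, with the nearest at 5.65. Inhba was 4.89 in ligated sham replicate 3, with the nearest at 4.25. Bmp2 was 8.26 in control H/R replicate 1, with the nearest at 7.48. The first 3 lie on the arrays that correlated least with their own groups.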

How the results depend on the processing

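The 59 calls made in the 2 ligation comparisons were each recomputed under 16 to 18 settings, 1030 recomputations in all. Of these, 986 kept direction and side of the threshold, 44 kept the direction but no longer passed, and 0 reversed. Most settings left out 1 array and so reuse nearly all the data. The mean of probe sets cannot change the log2 difference of a gene with 1 probe set. Leaving out single arrays gave 25 to 30 calls for ligation in sham rats and 28 to 31 in H/R rats, and 0 to 0 in each other comparison. H/R in ligated rats gave 1 call in place of 0 without the 3 arrays of low correlation, an alternative chosen after seeing the data. Array centring gave 15 rises and 15 falls in sham rats and 18 and 15 in H/R rats, over all genes 2594 and 5128, and 2611 and 4795. The cause was not tested. No paired analysis was possible because the replicate numbers follow accession order and pair no samples. Genes near background have only bounded folds, and the 6 genes above background in no group have none.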
